A study of Mus musculus with 4 samples.

Results

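Of the 44000 accessible regions that were called in all 4 ATAC-seq libraries of B16-F10 mouse melanoma cells, 1059 stood higher in the ranking of both libraries without Ssbp4 than in either wild-type library. They are described here by position, level and surroundings. Calls of the 4 libraries on chromosomes 1 to 19, X and Y were merged into 72251 regions where they overlapped by 1 bp or more. Each region with a call in every library was ranked in each library by its highest −log10 p-value and given a percentile from 0 to 100. A member is a region whose lowest knockout percentile exceeded its highest wild-type percentile by over 10 points, and this difference is called the margin. The members were chosen by the −log10 p-values of all 4 libraries, so percentiles, p-values, folds and pileups of the members describe the choice and carry no test.

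ATAC-seq uses the Tn5 transposase to insert sequencing adapters into DNA that is free of nucleosomes, so a peak marks an open promoter, enhancer or other accessible site. B16-F10 is a melanoma line of C57BL/6 mice. Both genotypes were electroporated with Cas9: the 2 knockout libraries received a mixture of guides against Ssbp4, and the control guide named in the protocol targets an intergenic site of chromosome 2. The protocol names no isolation of single clones, and the labels number the libraries without saying that they came from separate cultures, so the spread between replicates may be technical. Ssbp4 belongs to the single-stranded DNA-binding proteins that bind LDB1, a cofactor that joins LIM-domain and other transcription factors at enhancers and promoters and helps to bring them into contact. The comparison asks which open regions stand higher in the order of accessibility when Ssbp4 is knocked out. Genes, promoters, sequences, the Ssbp4 locus and the marker genes of the cell line were not analysed here, since the gene and sequence tables at hand are of another build than the GRCm39 positions of the peaks.

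The libraries differed in ways that touch the ranking. The lists held 59215 and 63080 calls in wild type against 50068 and 57698 in the knockout. Over all shared regions, the median fold enrichment at the summit, reads piled up there divided by the local background, was 7.45 and 8.28 in wild type against 5.12 and 6.01 in the knockout. The fold was lower in both knockout libraries than in both wild-type libraries in 84.1% of shared regions and higher in 1.13%, and the −log10 p-value was lower in 75.9% and higher in 1.59%. Percentiles remove this common drop, so a region rises in rank when it drops less than its neighbours in the ranking as well as when it gains.

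The 1059 members made up 2.41% of the shared regions. The mirror pattern, in which both wild-type percentiles exceeded both knockout percentiles by over 10 points, held in 1885 regions (4.28%), so falling regions outnumbered rising ones at this margin. The order turned without a margin: both knockout percentiles lay above both wild-type percentiles in 14188 regions and below them in 11727. The median margin of the members was 12.6 points, the quartiles were 11.02 and 15.6, and the highest was 41.2. There were 300 members past 15 points, 91 past 20, 26 past 25 and 9 past 30. Falling regions reached further, with 297 past 20 points and 42 past 30. Leaving out any library loosens the rule, and the count of rising regions was then 1959 and 1854 without wild-type replicates 1 and 2 and 2391 and 2893 without knockout replicates 1 and 2.

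Members came from the lower part of the ranking. Their median percentiles were 23.9 and 22.6 in wild type against 42.5 and 41.2 in the knockout. The replicates of each genotype thus lay within 2 points of each other at the median, and the genotypes were far apart, as the rule requires. For single members, the median gap between replicates was 2.48 points in wild type and 3.36 in the knockout, against 2.16 and 2.69 over all shared regions. In all, 1003 members (94.7%) had a mean wild-type percentile under 50, against 53.5% of the falling regions. Members were most frequent between the wild-type percentiles 10 and 20, at 258 of 4465 shared regions (5.78%). Their share was 4.44% below the percentile 10, 2.76% between 40 and 50 and 0.251% between 60 and 70, and no region with a mean above 80 was a member. Above 90 a rise of over 10 points cannot occur. At the low end, a region weak in wild type was ranked only if both knockout libraries called it too. The fold ratio of all shared regions was also higher there, at 0.855 below the percentile 10 against 0.689 between 40 and 50. How far this filter sets the low start of the members was not tested. Falling regions were most frequent between 40 and 60, at 8.85% and 8.84%.

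**Figure D1:**
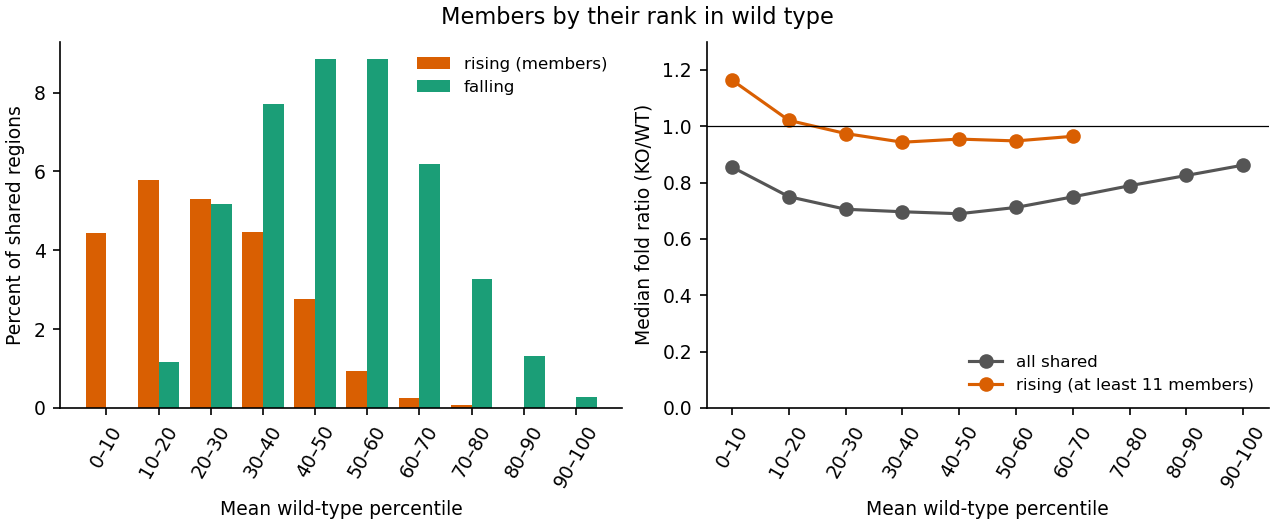
Left, percent of shared regions that rose (members) or fell, by the mean wild-type percentile in steps of 10; right, median ratio of the knockout to the wild-type fold in the same steps, for all shared regions and for members where a step holds at least 11. Members peak between the percentiles 10 and 20 at 5.78%, and their median fold ratio is above that of all shared regions in each step shown.

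The threshold cut through a continuous range of margins. The 3 members just inside had margins of 10.01, 10.00 and 10.00 points and lay at chr2:25913954-25914842, chr4:96616968-96618508 and chr2:135553007-135554832. The 3 regions just outside, at 9.99 points, were chr11:108290690-108291940, chr9:110297350-110299086 and chr4:149904870-149905869. Their folds were on both sides of each other: the member at chr4:96616968-96618508 had folds of 9.82 and 12.02 in wild type against 8.53 and 10.9 in the knockout, and the region at chr11:108290690-108291940 had 3.76 and 2.48 in wild type against 4.35 and 4.01 in the knockout.

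As a group, the members kept their enrichment while the typical shared region had less in the knockout. The median fold of the members was 4.55 and 4.96 in wild type against 4.47 and 5.13 in the knockout, so the 4 libraries lay close together. Per region, the geometric mean of the knockout folds divided by that of the wild-type folds had a median of 1.01 in the members, with 90% of them between 0.851 and 1.39. The same ratio was 0.774 over all shared regions and 0.488 in the falling regions. It was above 1 in 549 members (51.8%) and in 3.58% of all shared regions. The ratio also depended on the rank in wild type. Members below the percentile 10 had a median ratio of 1.16 against 0.855 for all shared regions of that rank, and members between 30 and 40 had 0.943 against 0.696.

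**Figure D2:**
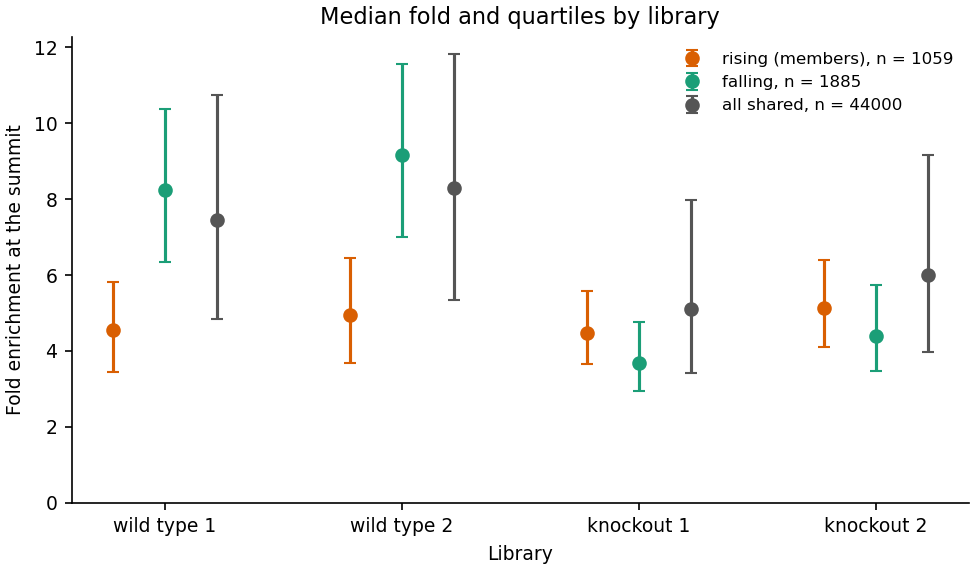
Median fold enrichment at the summit (points) with the lower and upper quartiles (bars) in each library, for the 1059 members, the 1885 falling regions and all 44000 shared regions. The members stay between 4.47 and 5.13, while all shared regions drop from 7.45 and 8.28 in wild type to 5.12 and 6.01 in the knockout.

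By the fold, the members fell into 3 classes. In 241 members (22.8%) the fold was higher in both knockout libraries than in both wild-type libraries, with medians of 3.25 and 3.22 in wild type against 3.96 and 4.17 in the knockout. These members started lowest in rank, at a median wild-type percentile of 11.2, and had the widest margins, with a median of 15.5 points. In 695 members (65.6%) the folds of the genotypes overlapped, with medians of 4.69 and 5.14 in wild type against 4.51 and 5.31 in the knockout. In the other 123 members (11.6%) the fold was lower in both knockout libraries, with medians of 5.83 and 6.38 in wild type against 5.11 and 5.65 in the knockout. The −log10 p-value itself, the value ranked, was higher in both knockout libraries in 328 members (31.0%) and lower in 0, against 1.59% and 75.9% of all shared regions. The members whose fold was lower rose in rank although their enrichment was lower. They started at a median percentile of 31.2 and had a median length of 1276 bp, against 964 bp for the members whose fold was higher.

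The p-value of a call rests on the reads piled up at the summit and on the local background, and both were recovered from the deposited fold and p-value. The median pileup of the members was 104 and 117 reads in wild type against 119 and 141 in the knockout. Over all shared regions it was 197 and 231 in wild type against 139 and 173 in the knockout, so the members lay nearer to the typical region in the knockout. The pileup of both knockout libraries exceeded that of both wild-type libraries in 474 members (44.8%), against 3.17% of all shared regions, and was below it in 15 members (1.42%), against 64.3%. Pileups are not corrected for read number, and the genome-wide background pileup was 14.7 and 15.1 in wild type against 17.2 and 17.4 in the knockout.

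The local background moved with part of the members. It is given here as a multiple of the genome-wide level, at which it cannot go lower. Its median in the members was 1.15 and 1.14 in wild type against 1.29 and 1.31 in the knockout, while over all shared regions it went from 1.73 and 1.77 to 1.51 and 1.59. It was higher in both knockout libraries in 310 members (29.3%), against 9.14% of all shared regions, and lower in 245 (23.1%), against 58.5%. A total of 285 members (26.9%) lay at the genome-wide background in all 4 libraries, against 17.9% of all shared regions and 25.9% of falling regions. In these the fold follows the pileup alone. Ranked by the fold in place of the p-value, 731 of the 1059 members (69.0%) still had a margin over 10 points and 1056 had a margin above 0, and 2346 regions rose in all.

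The calls over the members were also longer in the knockout. A call spans the bases that passed the calling threshold, so its length is tied to the p-value that was ranked. It comes from the same contrast and is no separate support. The median length of the strongest call was 847 and 846 bp in wild type against 986 and 948 bp in the knockout. Over all shared regions it was 1041 and 1023 bp in wild type against 1025 and 997 bp in the knockout. The call was longer in both knockout libraries in 451 members (42.6%), against 15.2% of shared regions, and shorter in 102 (9.63%), against 30.2%. In the falling regions the call was shorter in both knockout libraries in 66.5%.

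In length the members lay between the falling regions and all shared regions. The median length of the merged region was 1079 bp, against 1178 bp over all shared regions and 1012 bp in the falling regions. Regions of up to 800 bp rose in 3.5% of cases (223 of 6372), those over 1200 and up to 1800 bp in 1.86% (301 of 16158) and those over 1800 bp in 2.32% (113 of 4861). In all, 37 members (3.49%) held more than 1 call in some library, against 2.87% of shared regions. In 702 members (66.3%) the strongest summits of the 4 libraries lay within 100 bp of each other, against 75.7% of all shared regions. In 56 members (5.29%) they were over 500 bp apart, against 3.91%, so that in these the libraries ranked different places of the region. The longest member was chr3:107384394-107389007 (4614 bp), with percentiles of 24.7 and 25.8 in wild type against 43.5 and 42.8 in the knockout. Its folds were 3.78 and 4.24 in wild type against 3.32 and 3.83 in the knockout, and its background went from 2.46 and 2.51 to 3.08 and 3.09. Only knockout replicate 1 held this member as 1 call, of 4220 bp. Each other library held 2 calls there, the strongest 1284 to 1676 bp long.

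The member with the widest margin, chr17:13874876-13875344, was 469 bp long and went from the percentiles 12.8 and 10.6 in wild type to 61.1 and 54.0 in the knockout. Its folds were 2.55 and 2.56 in wild type against 4.24 and 4.28 in the knockout, from pileups of 143 and 155 reads against 284 and 288. The background around it was alike in the 4 libraries, between 3.78 and 3.96 times the genome-wide level, and the 4 summits lay within 12 bp. The genotypes were thus apart in summit pileup and overlapped in background.

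The second, chr2:18223964-18224961, went from 9.40 and 13.0 to 51.6 and 55.3. Its pileup went from 59 and 75 reads to 143 and 194, and its background from 1.00 in both wild-type libraries to 1.53 and 1.58, so both the summit and its surroundings were higher in the knockout. Its nearest shared region, 404 bp away, is itself a member and shifted upward by a mean of 18.6 points. The third, chr6:37392064-37392700, went from 4.37 and 12.3 to 49.7 and 50.3, with folds of 2.07 and 2.72 in wild type against 3.61 and 4.09 in the knockout.

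The fourth, chr11:51548388-51550568, showed another pattern. It went from 19.6 and 17.0 to 54.0 and 55.1, while its pileup changed little, from 364 and 389 reads to 376 and 468. Its background went from 12.5 and 12.8 to 8.0 and 8.69 times the genome-wide level, and the fold went from 1.98 and 2.01 to 2.73 and 3.07. At chr8:126244205-126245551 the pileup was likewise close, 109 and 128 reads in wild type against 127 and 153 in the knockout, and the background went from 2.34 and 2.47 to 1.79 and 1.81. At both sites the nearest shared region lay within 10 kb.

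At chr12:76490519-76492158 the pileup went from 112 and 140 reads to 236 and 287 and the background from 1.18 and 1.26 to 1.94 and 1.97. The percentiles there went from 31.6 and 33.8 to 67.0 and 66.6, yet the folds of the genotypes overlapped, at 6.16 and 7.02 in wild type against 6.92 and 8.13 in the knockout. It was the only region among the 20 with the widest margins in which they did. At chr7:44388030-44388627 the percentiles went from 23.6 and 21.1 to 61.3 and 56.1 and the folds from 5.55 and 5.89 to 7.45 and 8.09.

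Several of the 20 stood alone. Their nearest shared region was over 100 kb away in 6, and 7 were at the genome-wide background in all 4 libraries, so that their fold follows the pileup alone. At chr2:96023903-96024722 the pileup was 42 reads in each wild-type library and 100 and 99 in the knockout, the fold went from 2.74 and 2.66 to 5.56 and 5.42, and the nearest shared region was 287533 bp away. At chr3:12317201-12318067, 1804892 bp from the next shared region, the folds were 3.13 and 2.91 in wild type against 4.40 and 5.42 in the knockout. The region chrX:89759355-89760193 had folds of 4.78 and 5.02 in wild type against 7.37 and 6.99 in the knockout, with its neighbour 1100483 bp away. The short region chr1:12727669-12728072 (404 bp) had 3.70 and 4.27 in wild type against 6.82 and 5.91 in the knockout. In these 4 regions the genotypes did not overlap in fold or pileup.

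The others of the 20 lay at chr7:11744311-11745695, chr14:15832134-15832898, chr18:28984778-28985884, chr13:60247238-60247932, chr18:3623176-3623983, chr19:6739420-6739915, chr14:46411642-46413296, chr4:3089732-3091143 and chr7:59403639-59404381. Over all 20, the margins ran from 26.7 to 41.2 points, wild-type percentiles from 1.40 to 35.1 and knockout percentiles from 32.6 to 67.0. The ratio of knockout to wild-type fold ran from 1.14 to 2.03. They lay on 15 chromosomes, and each also had a margin over 10 points in the ranking by fold.

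**Figure D3:**
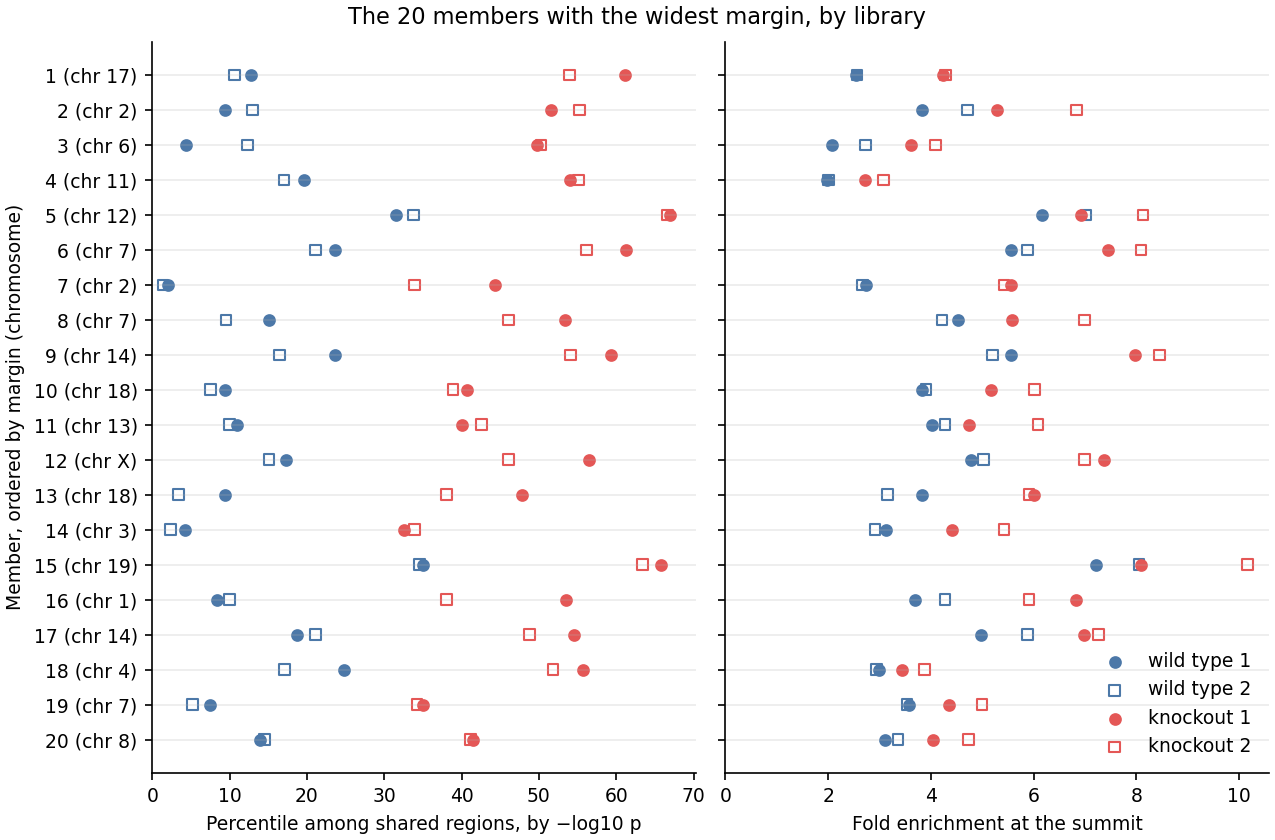
Percentile (left) and fold enrichment at the summit (right) in each of the 4 libraries for the 20 members with the widest margin, at most 3 from any 2-Mb bin; blue, wild type; red, knockout; filled, replicate 1; open, replicate 2. The percentiles of the genotypes are apart in all 20 by the rule of choice, and the folds are apart in 19.

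A few members stood high in the wild-type ranking already. The highest was chr19:6789962-6790549, at the percentiles 78.9 and 75.0 in wild type against 94.2 and 90.7 in the knockout. Its pileup went from 493 and 487 reads to 890 and 839 and its background from 2.45 and 2.24 to 4.12 and 3.49, and its folds were 13.4 and 13.97 in wild type against 12.4 and 13.6 in the knockout. It lies close to chr19:6739420-6739915, one of the 20 above, where the background also went from 1.00 in both wild-type libraries to 1.37 and 1.13. At chr1:129324758-129325850 the folds were 20.1 and 19.1 in wild type against 18.9 and 21.1 in the knockout, the strongest among the 3 highest. These members stood higher in rank at folds that overlapped between genotypes.

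Chromosomes 14 and 18 held more members than their share of open regions. Chromosome 14 held 69 members, 5.11% of its 1351 shared regions, and chromosome 18 held 49, 4.37% of 1120. Chromosome X held 19 of 682 (2.79%), nearer to the 2.41% of the whole set. The lowest share on an autosome was 1.34% on chromosome 19 (16 of 1197). Together, chromosomes 14, 18 and X held 137 members (12.9%), against 7.17% of all shared regions and 4.88% of falling regions. The members were spread over 32 bins of 2 Mb on chromosome 14 and 27 on chromosome 18. The share was 10.9% without knockout replicate 2 and between 11.5% and 12.4% without each other library.

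Chromosomes 14 and 18 also shifted as a whole. Over all their shared regions, rank rose by medians of 2.45 and 1.89 points, and on chromosome X, where the share of members was near that of the whole set, by 1.79. On every other autosome the median was 0.543 or less. When regions were ranked within their own chromosome, chromosome 14 had 37 rising regions (2.74%), chromosome 18 had 28 (2.50%) and chromosome X had 12 (1.76%), and the share of the 3 together fell to 7.31%. Ranked by the fold, that share was 8.27% of 2346 rising regions. Of the 137 members on these chromosomes, 98 (71.5%) kept a margin over 10 points in that ranking, against 69.0% of all members. A difference in chromosome copies and one in accessibility along the chromosome cannot be told apart in these lists. The median fold ratio of the members, 1.01 over the genome, was 1.01 on chromosome 14, 1.08 on chromosome 18 and 1.01 on chromosome X.

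**Figure D4:**
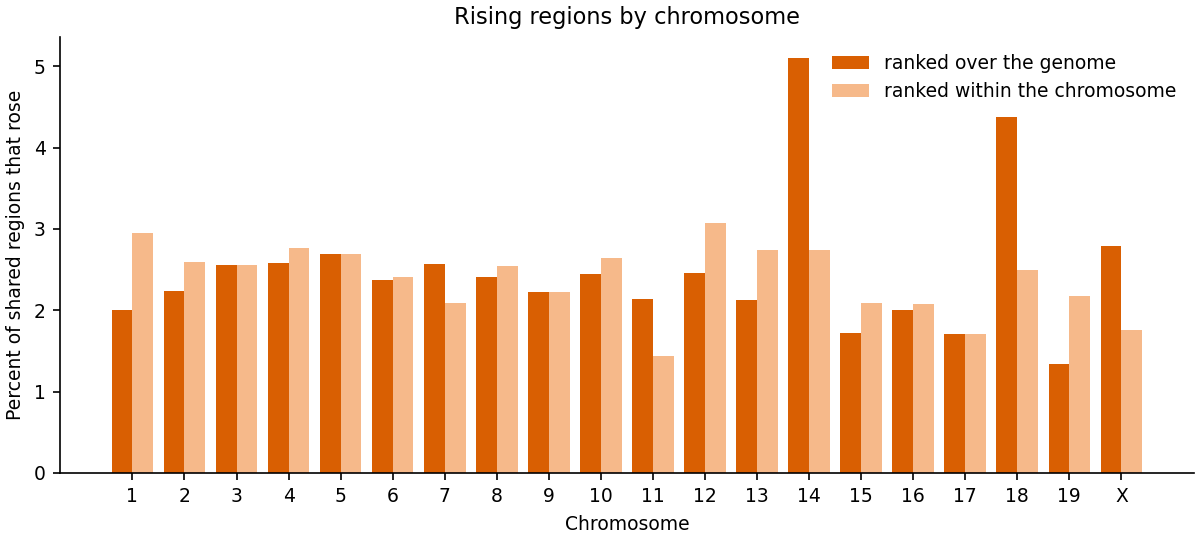
Percent of the shared regions of each chromosome that rose in rank, with regions ranked over the genome (dark bars, the members) and within the chromosome (light bars); chromosome Y, with 20 shared regions, is left out. The bars of chromosomes 14 (5.11%) and 18 (4.37%) stand above the others and drop to 2.74% and 2.50% in the ranking within the chromosome.

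The members with the widest margins on these chromosomes had higher folds in the knockout. At chr14:15832134-15832898 the percentiles went from 23.6 and 16.4 to 59.3 and 54.1 and the folds from 5.55 and 5.20 to 7.98 and 8.46. At chr14:46411642-46413296 the folds went from 4.98 and 5.89 to 6.99 and 7.26. At chr18:28984778-28985884 they went from 3.83 and 3.90 to 5.17 and 6.02, and at chr18:3623176-3623983 from 3.83 and 3.16 to 6.0 and 5.91. At chrX:109907802-109908535 they went from 4.02 and 3.66 to 4.84 and 5.20. In all 5 the folds of the genotypes did not overlap, and the background was at most 1.05 times the genome-wide level.

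The member with the highest ratio of folds was also on chromosome 14. At chr14:118382472-118383612 the pileup was 42 and 32 reads in wild type against 98 and 83 in the knockout, and the fold 2.74 and 2.04 against 5.45 and 4.55. Its wild-type percentiles of 2.07 and 0.0784 make it one of the weakest shared regions of those libraries.

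The members were spread over much of the genome. They fell into 599 of the 1260 bins of 2 Mb that hold a shared region, with 1 member in 333 bins, 2 in 150, 3 to 5 in 108 and 6 or more in 8. In 59 members (5.57%) the nearest shared region was itself a member, against 2.60% over all shared regions. In 57 members (5.38%) it was a falling region, against 4.14%. The median gap to the next shared region was 7191 bp, against 8741 bp for all shared regions and 11560 bp for falling ones. The nearest region of a member shifted by a median of only 0.700 points, against 0.532 over all shared regions. Outside the dense bins described next it was 0.474.

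In 5 bins the members were dense, at 6 or more and at least 10% of the shared regions of the bin. These bins were singled out after the members had been counted. They held 41 members. Chromosome 5 at 14 to 16 Mb held 16 of 72 shared regions (22.2%), chromosome 7 at 58 to 60 Mb 6 of 14 (42.9%), chromosome 3 at 2 to 4 Mb 6 of 20 (30%), chromosome 8 at 20 to 22 Mb 6 of 47 (12.8%), and chromosome 14 at 56 to 58 Mb 7 of 54 (13.0%). The median length of these 41 members was 1350 bp, and the nearest shared region was within 10 kb in 78.05% of them, against 58.8% of the members elsewhere.

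In all 5 bins most of the other shared regions shifted upward in rank as well. These were 44 of 56 on chromosome 5, 7 of 8 on chromosome 7 and 13 of 14 on chromosome 3. They were 32 of 41 on chromosome 8 and 34 of 47 on chromosome 14. How many of all shared regions shifted upward was not counted. The bin of chromosome 5 also held 2 falling regions. The median shifts of the regions that were not members were 6.94 points on chromosome 5, 7.15 on chromosome 7, 11.2 on chromosome 3 and 4.68 on chromosome 8. On chromosome 14 the shift was smaller, at 2.42, near the median of 2.45 over all shared regions of that chromosome. Over 960 bins with at least 10 shared regions the median shift was 0.419, and 90% of bins lay between −1.68 and 2.85. The members' pileups were higher in both knockout libraries in these bins, and so was the background in 3 of them. On chromosome 5, the members' median pileup was 87 and 79 reads in wild type against 130.5 and 142.5 in the knockout, and their background went from 2.05 and 1.86 to 2.74 and 2.68. On chromosome 8 the pileup went from 56.5 in both wild-type libraries to 124 and 106, and the background from 1.38 and 1.22 to 2.33 and 1.93. On chromosome 7 the pileup went from 113 and 84 to 153 and 174.5. On chromosome 3 the members began at position 3000153, near the start of the chromosome, and spanned 78.9 kb. The background overlapped there, at 4.18 and 3.76 in wild type against 4.74 and 3.84 in the knockout.

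The median folds of these members overlapped between genotypes in each bin, as they did over all members. On chromosome 5 the folds had medians of 3.05 and 3.11 in wild type against 2.82 and 3.23 in the knockout. The ratio of folds was above 1 in 8 of 16 members there. Over the 5 bins it was above 1 in 24 of 41 members (58.5%), against 51.8% of all members. Ranked by the fold, 16 of the 41 members of the dense bins (39.0%) kept a margin over 10 points, against 69.0% of all members. At chr5:15650857-15652006 the percentiles went from 12.2 and 17.9 to 36.1 and 37.5 while the folds were 3.28 and 4.31 in wild type against 3.18 and 3.98 in the knockout. At chr7:59416753-59419951, of 3199 bp, they went from 17.4 and 19.7 to 45.0 and 43.3 with folds of 3.27 and 4.07 against 3.28 and 3.59. There the strongest summits of the libraries lay up to 1143 bp apart, so the values belong to different places of the region. Other members of these bins had folds that were apart. At chr7:59403639-59404381 the folds went from 3.57 and 3.53 to 4.35 and 4.99, and at chr8:20644903-20645747 from 2.96 and 2.91 to 3.62 and 3.46. Of the 41 members, the fold was higher in both knockout libraries in 9, lower in both in 5 and overlapped between genotypes in 27. Copy number of the segments, reads that map to several places and accessibility cannot be told apart in these lists.

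Chromosome 14 differed from the other dense bins in background and in the pileup of its other regions. Its 7 members had a median background of 1.00 in all 4 libraries and median folds of 7.46 and 7.68 in wild type against 6.90 and 8.42 in the knockout. The shared regions of the bin that were not members had a ratio of knockout to wild-type pileup of 0.821, near the median of 0.777 over all shared regions. The ratio was 1.33 on chromosome 5, 1.64 on chromosome 7, 1.11 on chromosome 3 and 1.32 on chromosome 8. At chr14:57856863-57857642 the percentiles went from 36.6 and 32.4 to 62.2 and 56.2 and the folds from 7.46 and 7.68 to 8.64 and 8.94. At chr14:56170689-56171805 the folds were 7.46 and 9.11 in wild type against 7.65 and 10.5 in the knockout and so overlapped.

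**Figure D5:**
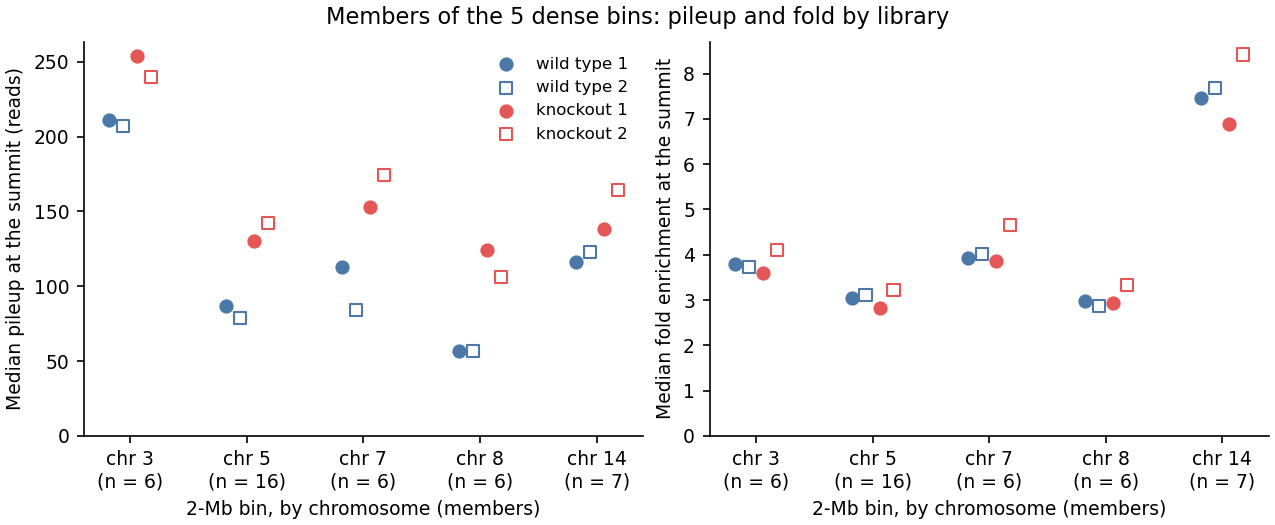
Median pileup in reads (left) and median fold enrichment at the summit (right) of the members of the 5 dense 2-Mb bins, in each library; blue, wild type; red, knockout; filled, replicate 1; open, replicate 2. Both knockout libraries are above both wild-type libraries in pileup in all 5 bins, while the median folds of the genotypes overlap in all 5.

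Without the 5 bins the median levels of the members changed little. With only 41 of the 1059 members in these bins, the medians could hardly move. The share of members whose nearest shared region was itself a member went from 5.57% to 4.22%. The 1018 members elsewhere had median folds of 4.61 and 5.02 in wild type against 4.51 and 5.18 in the knockout, a median fold ratio of 1.01 and a background of 1.14 and 1.12 in wild type against 1.27 and 1.298 in the knockout. With the bins removed before ranking, 1029 regions rose and 12.7% of them lay on chromosomes 14, 18 and X.

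The depth sets how finely a rank can be read. Moving the summit pileup of a member by its square root, the size of the counting error, shifted its percentile by a median of 4.06 and 3.64 points in wild type against 4.75 and 4.28 in the knockout. Over all shared regions the shift was 2.90, 2.58, 3.66 and 3.10 points, so members were measured less finely than the typical region. The measure covers counting error only and not differences between cultures.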

How the data were processed

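ATAC-seq peak lists of 2 wild-type and 2 Ssbp4 knockout libraries were used, 1 list per library. Peaks were called with MACS2 on GRCm39, per the submitters' processing notes; the aligner, versions, duplicate filter and read shift are in no source used here. The authors deposited for each call the fold enrichment (a ratio of pileup to local background), the −log10 p-value and −log10 q-value, a display score that was not used, and the summit position. Every value belongs to its own library.

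Positions were made 1-based. Percentiles use average ranks for ties. Pileup and background were recovered from fold = (pileup + 1) / (background + 1) and the Poisson tail, and the pileups came out whole, to within 0.05, for 99.998% of the calls of each library. Python 3.11.15, numpy 2.4.6, pandas 2.3.3 and scipy 1.17.1 were used, and the ranking was tested on simulated data. With 2 libraries against 2 no permutation p can go below 0.33, so no test was made. The members, the 2-Mb bins and the lists were chosen with earlier results of these data known. Regions named are the 20 with the widest margin (at most 3 per 2-Mb bin), 3 on either side of the threshold and the first 2 on chromosomes 14, 18 and X. Also named, chosen after their values were seen, are some of the first 2 of each dense bin and the extremes in length, rank and fold ratio. Planned gene lists, motifs and sequences need tables of the same build and were not analysed here. Read totals were not used. The alternatives are those of the closing section.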

Additional observations from a re-analysis of the deposited data

How the results depend on the processing

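The counts of rising and falling regions stayed within 1.5 times of 1059 and 1885 when ranks used the q-value, when calls had to cover 50% of the region, with a −log10 q of at least 5, with lists of equal length, in windows of fixed width around summits, with ranks within each chromosome and without the 5 dense bins (added after the data were seen). Ranked by the fold, 2346 regions rose and 2957 fell, 8.27% of the rising ones lay on chromosomes 14, 18 and X, and their median length was 1340.5 bp. With a margin of 5 points 3695 rose (median 1152 bp) and 4493 fell, and with 20 points 91 rose (median 1009 bp, 17.6% on these chromosomes) and 297 fell. The share on these chromosomes was 7.31% with ranks within each chromosome. The median length was 1117 bp with equal lists and 556 bp in windows of fixed width, which set the length by construction. Leaving out each library in turn gave 1854 to 2893 rising and 2759 to 3345 falling regions, shares of 10.9% to 12.4% and median lengths of 911 to 1135 bp; the rule then asks for agreement of 3 libraries only. The count of rising regions exceeded 1.5 times the count with all libraries whichever library was left out (1959 and 1854 without wild-type replicates 1 and 2, 2391 and 2893 without knockout replicates 1 and 2), and that of falling regions without knockout replicates 1 (3345) and 2 (3318). In each of these alternatives fewer regions rose than fell, but with no margin at all 14188 rose and 11727 fell. The cause of the other differences was not tested.

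With the replicate number as a block, that is, with the margin taken between same-numbered libraries, 1528 regions rose and 2354 fell. The differences between replicates 1 and 2 of the genotypes correlated across the 44000 regions with r = 0.107, regions not being independent, and with 2 pairs this does not show that the numbers pair the libraries. Depth limits the ranks: 1 square root of the pileup moved a member by 3.64 to 4.75 points at the median.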

Other observations

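Members were more frequent near the chromosome starts. In the first 4 Mb of the chromosomes, a limit chosen after the data were seen, lay 24 members (2.27%), against 385 of all shared regions (0.875%) and 14 falling regions (0.743%); 6 of the 24 were in the dense bin of chromosome 3. At chr10:3061390-3065252 the pileup went from 734 and 755 reads to 1479 and 1292 and the background from 17.8 and 16.3 to 30.3 and 23.9 times the genome-wide level, while the folds were 2.80 and 3.05 in wild type against 2.84 and 3.09 in the knockout. At chr11:3050362-3054568 the background went from 3.44 and 3.16 to 4.63 and 3.98 and the folds went from 5.17 and 5.56 to 4.45 and 4.84. At chr4:3089732-3091143 the folds went from 2.98 and 2.94 to 3.43 and 3.87. Mouse chromosomes carry the centromere at this end, and reads that fit several places there were not examined.

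Regions called in only 1 genotype lay beside members somewhat more often than beside all shared regions, a difference that was not tested. A region called in both knockout libraries and neither wild-type library lay within 10 kb of 28 members (2.64%), against 1.60% of all shared regions, and of 20 (1.96%) outside the dense bins, against 1.51% of the shared regions there. Such a region also lay within 10 kb of 37 falling regions (1.96%), so this nearness was not particular to the members. A region called in both libraries of the wild type but in no knockout library lay within 10 kb of 98 members (9.25%), against 7.22% of all shared regions and 6.42% of falling regions. Members also lay nearer to any shared region, at a median gap of 7191 bp against 8741 bp for all shared regions and 11560 bp for falling ones.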
